A study of Sus scrofa with 6 samples.

Results

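HOXA10 and MEIS1, 2 homeobox genes that carry positional information along the body axis and the limb, were represented by 5 of the 550 probe sets in the authors' deposited table of muscle differences. That table keeps probe sets that differed between soleus and longissimus dorsi by at least 1.5-fold with a p-value, not adjusted for the number of tests, under 0.05. It names 292 genes. Probe sets were taken from it where the title named homeobox protein A10 or where the symbol or title named MEIS1, out of 23935 non-control probe sets on the array. This gave 4 probe sets for the homeobox A10 gene and 1 for MEIS1. All 5 were thus selected on the measured difference between the muscles, and their values in this contrast are a description with no test of their own.

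RNA was measured on 6 Affymetrix porcine GeneChips, short-oligonucleotide arrays that read each transcript with a set of probes, with 3 arrays of soleus and 3 of longissimus dorsi. All samples came from 3 Meishan gilts (female pigs of a Chinese breed) of one litter, aged 150 days, which were fed alike. Soleus, a muscle of the hind limb, is the name in the sample titles, whereas the protocol writes SE for the same samples and describes them as the deep part of an oxidative muscle. Longissimus dorsi, a muscle of the back, was taken at the last rib and is described as fast and glycolytic. Replicates are numbered 1 to 3 within each muscle, the order in which their values are given, and the labels do not say that a number marks a pig. Values are on the log2 scale, with the median of the 6 arrays set to 0 in every probe set, so that they show how arrays differ and hold no level. Whether muscle markers are present or absent can for this reason not be read from the values, and levels of different genes cannot be compared. Between the muscles, the 3 fibre type markers named in the authors' table were mixed against the labels. MYOZ2, which encodes a slow-fibre protein of the Z-disc, was higher in soleus (difference 0.86, limma SE 0.22) and MYH4, a fast myosin heavy chain, lower (-0.59, SE 0.18), whereas a transcript similar to bovine slow myosin heavy chain was lower in soleus (-0.98, SE 0.18), against the description of this muscle as oxidative. None of the 3 passed limma's adjusted threshold, and all 3 had an unadjusted p under 0.05, as kept probe sets. Of all non-control probe sets, 0.00836% passed the adjusted threshold and 8.46% the unadjusted one. With 3 arrays a muscle, precision is limited by their number. Since the pigs are littermates and both muscles came from the same animals, the spread between arrays is not the spread between unrelated pigs.

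HOX genes encode homeodomain transcription factors and lie in clusters, where the order of the genes follows the order in which they are expressed along the body axis. HOXA10 belongs to the posterior end of its cluster, and in vertebrate embryos it is expressed in the lumbar and caudal trunk and in the developing limb. MEIS1 belongs to the TALE class of homeodomain proteins, which bind DNA together with HOX proteins, and in the early limb bud of chick and mouse it marks the proximal part. In mouse, cells of adult muscle and connective tissue keep a HOX expression pattern that reflects their position in the body.

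The names need care. All 4 homeobox A10 probe sets carry the symbol HOXD10A and a title of homeobox protein A10, and 1 of them, Ssc.27606.1.S1_at, is also titled as a Hoxa10-like partial mRNA. The symbol HOXD10A names 0 genes in the RefSeq gene table of the Sscrofa11.1 pig assembly, which lists HOXA10 and HOXD10 as separate genes on different chromosomes. In that table HOXA10 lies between HOXA11 and HOXA9. The gene is called HOXA10 here after its title. The authors' table lists all 4 probe sets under UniGene cluster Ssc.26254, UniGene clusters being groups of transcripts held to come from one gene, and lists Ssc.27606.1.S1_at under a second cluster as well. By these names they may share a target, which was not checked against probe sequences, and they are not counted as replicates. The MEIS1 probe set, Ssc.24864.2.S1_at, has no symbol and is titled as a transcript strongly similar to mouse Meis homeobox 1.

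HOXA10 was higher in soleus on each of its 4 probe sets, by close to 2-fold. Averaged over them, it had values of 0.38, 0.69 and 0.70 in soleus, against -0.45, -0.34 and -0.70 in longissimus dorsi. The 3 soleus arrays all lay above the 3 of longissimus dorsi. The mean was 0.59 ± 0.18 in soleus and -0.50 ± 0.19 in longissimus dorsi (SD, n = 3 arrays each). The difference between the muscles was 1.09 on the log2 scale (SE 0.15, from the spread within muscles), or 2.13-fold.

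**Figure D1:**
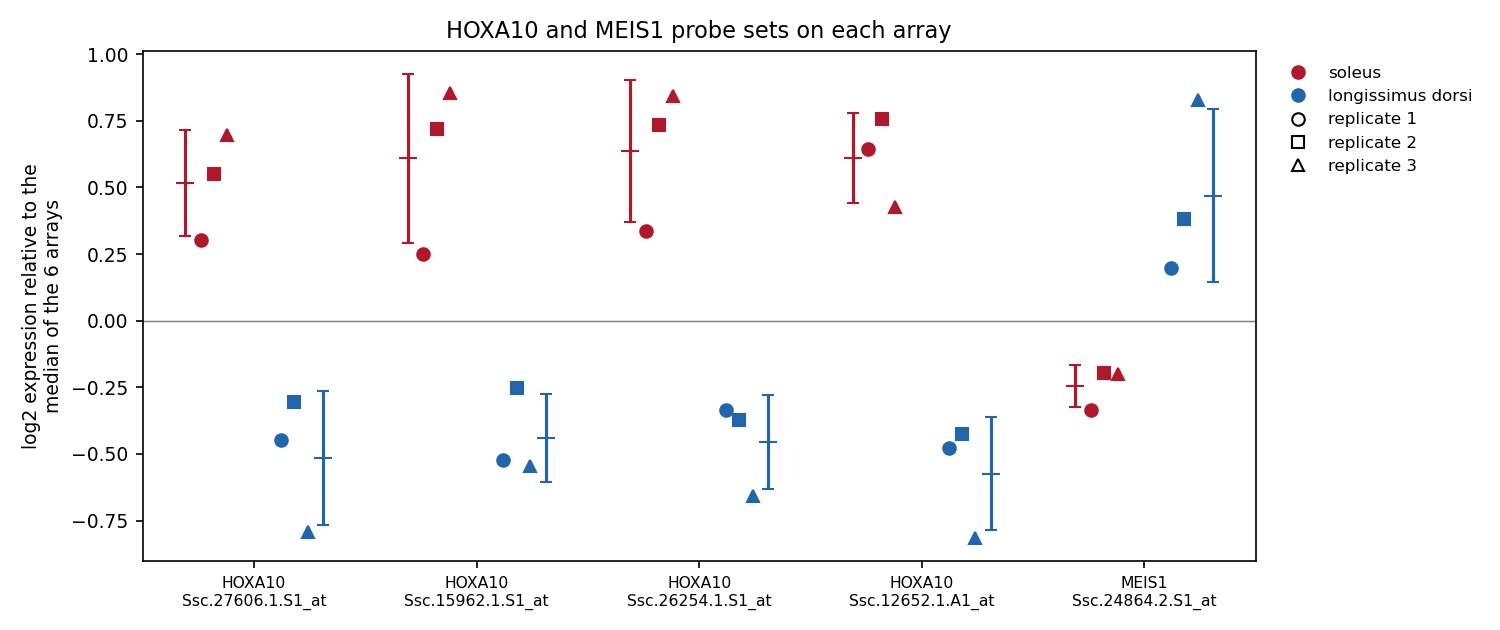
Log2 expression relative to the median of the 6 arrays (vertical axis) for the 4 HOXA10 probe sets and the MEIS1 probe set, with soleus in red left of longissimus dorsi in blue, a marker shape for each replicate number, and bars for the mean ± SD of 3 arrays. Soleus lies above longissimus dorsi for HOXA10 and below it for MEIS1, and longissimus dorsi replicate 3 has the lowest HOXA10 and the highest MEIS1 values.

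The probe set Ssc.12652.1.A1_at had the largest HOXA10 difference. Its values were 0.64, 0.76 and 0.43 in soleus and -0.48, -0.43 and -0.82 in longissimus dorsi. It differed by 1.18 (limma SE 0.18), a 2.27-fold difference in the authors' deposited table. Soleus replicate 3 was the lowest soleus array here, unlike on the other 3 probe sets, where it was the highest.

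The probe set Ssc.26254.1.S1_at had 0.34, 0.73 and 0.84 in soleus, against -0.34, -0.37 and -0.66 in longissimus dorsi, a difference of 1.09 (limma SE 0.19). The probe set Ssc.15962.1.S1_at had 0.25, 0.72 and 0.86 in soleus and -0.52, -0.25 and -0.55 in longissimus dorsi, which differ by 1.05 (limma SE 0.20). The probe set Ssc.27606.1.S1_at had 0.30, 0.55 and 0.70 in soleus and -0.45, -0.30 and -0.79 in longissimus dorsi, the smallest of the differences at 1.03 (limma SE 0.19). In these 3 probe sets soleus replicate 1 was the lowest soleus array, and in all 4 longissimus dorsi replicate 3 was the lowest of all arrays. The differences of the 4 probe sets lie within 1 SE of each other. The lowest value of the higher muscle and the highest of the lower one are equal and opposite in each probe set, which follows from the authors' centring and is no property of the gene.

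All 4 HOXA10 probe sets placed soleus above longissimus dorsi, while the order of arrays within a muscle was not the same in all. On a given array their values spread over 0.17 to 0.43 from lowest to highest, which is smaller than the distance of 0.72 between the nearest arrays of the 2 muscles in the mean over the probe sets. Over the 6 arrays the 6 pairs of HOXA10 probe sets correlated at r = 0.90 to 0.99, which mostly shows the step between the muscles that chose them. With each muscle's mean removed, the 3 probe sets whose identifiers end in S1_at correlated at 0.82 to 0.91. The pairs with Ssc.12652.1.A1_at then gave 0.02 to 0.40, so this probe set followed the others between the muscles and little within them. These correlations are descriptions over 6 arrays hybridised once each, which the probe sets share.

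MEIS1 was lower in soleus, the direction opposite to HOXA10. Its values were -0.33, -0.20 and -0.20 in soleus, against 0.20, 0.38 and 0.83 in longissimus dorsi. The soleus arrays lay close together, longissimus dorsi replicate 3 was the highest array, and the muscles did not overlap. The mean was -0.24 ± 0.08 in soleus and 0.47 ± 0.32 in longissimus dorsi (SD, n = 3 arrays each), a log2 difference of -0.71 (limma SE 0.19). In the authors' deposited table this is a fold of 1.64 at an unadjusted p of 0.0206, nearer to both cut-offs than any HOXA10 probe set, whose folds there were 2.04 to 2.27 and whose p-values were 0.00164 to 0.00700. Longissimus dorsi replicate 3 decides how far MEIS1 lies from the cut-off: without it the difference was -0.53, or 1.45-fold, below the fold limit of the table.

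The array on which MEIS1 was highest, longissimus dorsi replicate 3, was also the array on which HOXA10 was lowest. Between the HOXA10 mean and MEIS1 the correlation was -0.90 over the 6 arrays and -0.42 after each muscle's mean was removed. For single HOXA10 probe sets the second value ran from -0.72 to 0.07, so the opposite course within muscles was not shared by all of them. Where samples are set side by side by replicate number, the HOXA10 mean was higher in soleus by 0.83, 1.03 and 1.41 and MEIS1 lower, with differences of -0.53, -0.58 and -1.03, for numbers 1, 2 and 3. Bulk RNA cannot tell apart fewer cells that express a gene and less of its RNA per cell.

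In limma, a linear model that shares the estimate of spread between probe sets, 0 of the 5 probe sets passed a Benjamini-Hochberg adjusted p under 0.05 over the array. Across the whole array 2 of 23935 probe sets did (0.00836%). At an unadjusted limma p under 0.05 there were 5 of the 5, against 2025 of 23935 (8.46%). With a 1.5-fold difference as well the 5 stood against 1219 of 23935 (5.09%), and the rule that chose them used the same contrast. The 2 muscles did not overlap in 5 of the 5 probe sets, against 14.2% of the array, with 6.08% of it higher and 8.11% lower in soleus. Of the array, 0.798% was at 2-fold or more on the side of soleus, where the 4 HOXA10 probe sets lie. The members were selected on this contrast, so nothing is read from these counts.

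The size of the differences can be placed among all probe sets as a description. A difference at least as large as that of HOXA10, in either direction, was found in 173 probe sets for Ssc.12652.1.A1_at and in 307 for Ssc.27606.1.S1_at, the largest and the smallest of the 4 (0.723% and 1.28% of the array). MEIS1 was at a size reached by 1138 probe sets (4.75%). The median difference of the array was -0.03, and its middle 90% ran from -0.52 to 0.54. In the authors' deposited table, 62 to 102 of the 323 probe sets higher in soleus lay further out than the HOXA10 ones, and 143 of the 226 non-control ones on the other side lay further out than MEIS1.

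**Figure D2:**
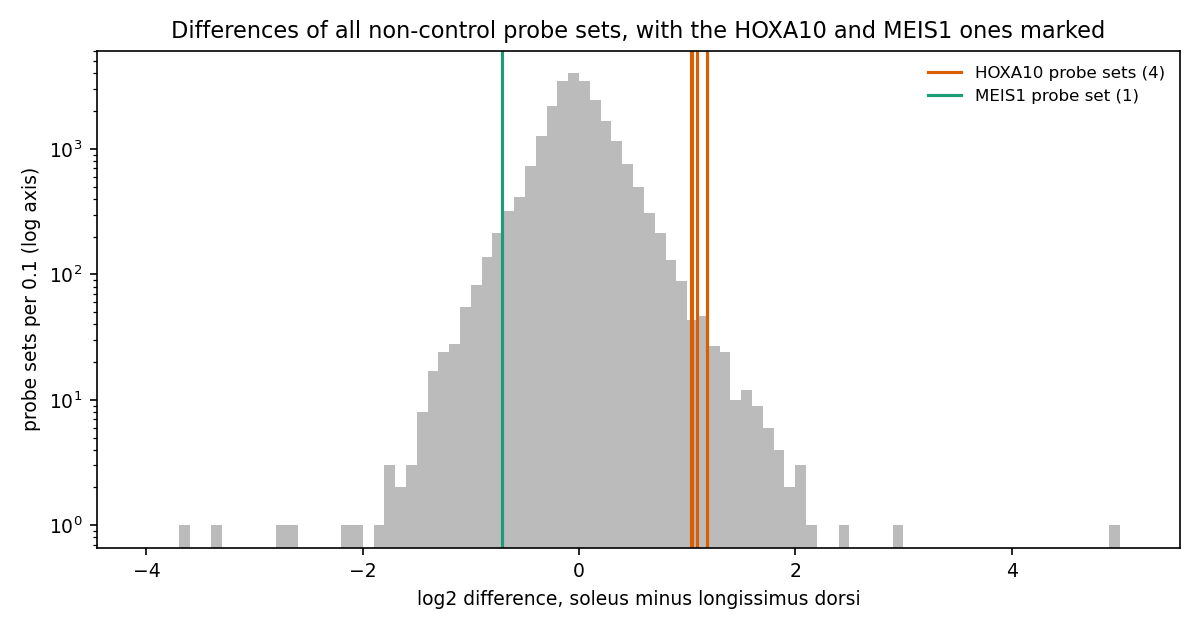
Number of non-control probe sets in steps of 0.1 (vertical, log axis) by log2 difference, soleus minus longissimus dorsi (horizontal), with lines at the 4 HOXA10 probe sets (1.03 to 1.18) and at MEIS1 (-0.71). The HOXA10 lines stand in the right tail of the 23935 probe sets and the MEIS1 line nearer to the centre on the left.

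The array holds 4 further probe sets whose identifiers share a cluster number with a HOXA10 or MEIS1 probe set or with its UniGene cluster. They have no gene name in the files, and none is given to them here. The probe set Ssc.24864.1.A1_at shares its number with the MEIS1 probe set and is listed in the authors' table as a transcribed locus, in another UniGene cluster. It had -0.20, -0.88 and -0.50 in soleus, against 0.26, 0.20 and 1.03 in longissimus dorsi, a difference of -1.02 (limma SE 0.27). Its arrays separate by muscle in the same direction as those of MEIS1, and longissimus dorsi replicate 3 is again the highest.

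The 3 others were not kept by the authors' cut-offs, and in each the muscles overlap. Ssc.15962.1.A1_at, which shares its number with a HOXA10 probe set, had -0.08, 0.34 and 0.13 in soleus and 0.08, -0.23 and -0.61 in longissimus dorsi. It differed by 0.38 (limma SE 0.22, adjusted p = 0.657), towards soleus as HOXA10 but at 1.30-fold. Ssc.27606.1.A1_at shares its number with another HOXA10 probe set and had -0.04, 0.04 and -0.30 in soleus and 0.28, 0.45 and -0.38 in longissimus dorsi (difference -0.21, limma SE 0.24, adjusted p = 0.823). It ran the other way in its mean, by less than its spread. Ssc.19274.1.S1_at, whose number is that of the UniGene cluster of the MEIS1 probe set, had -0.54, -0.14 and 0.20 in soleus and 0.24, 0.14 and -0.14 in longissimus dorsi. Its difference of -0.23 (limma SE 0.22, adjusted p = 0.786) was likewise within its spread.

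**Figure D3:**
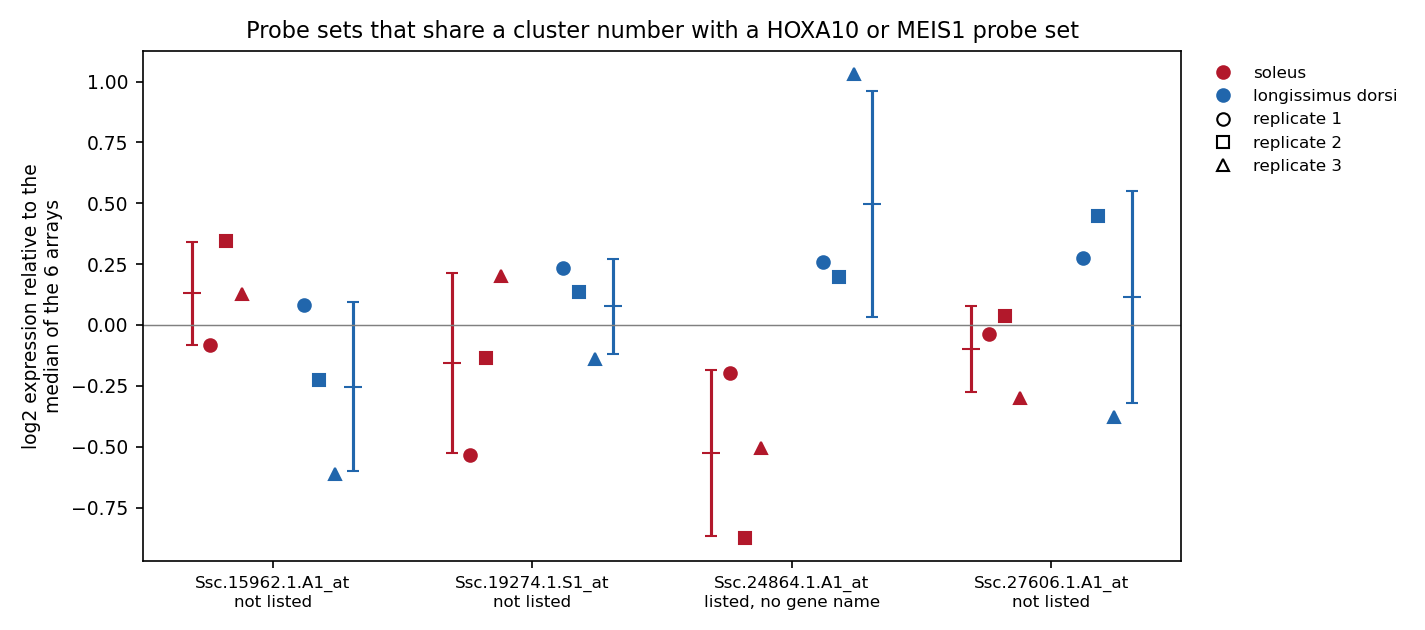
Log2 expression relative to the median of the 6 arrays (vertical axis) for the 4 probe sets that share a cluster number with a HOXA10 or MEIS1 probe set, soleus in red left of longissimus dorsi in blue, marker shapes for replicate numbers, bars for the mean ± SD of 3 arrays. In 3 of the 4 the muscles overlap, and in Ssc.24864.1.A1_at the soleus arrays lie below those of longissimus dorsi.

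Other genes of body and limb position were looked up in lists, of which few members are named in these data, since names cover the kept probe sets alone. Of 39 HOX genes HOXA10 was the 1 named, and of 11 TALE cofactors MEIS1 was the 1 named. Of 39 limb and body position regulators 1 was named, TBX1, a T-box transcription factor of pharyngeal and muscle development. TBX1 had 0.30, 0.94 and 1.61 in soleus and -0.34, -0.30 and -1.10 in longissimus dorsi, with a mean of 0.95 ± 0.66 in soleus and -0.58 ± 0.45 in longissimus dorsi (SD, n = 3 arrays each). Its difference of 1.53 (SE 0.35) did not pass in limma (adjusted p = 0.356). Soleus replicate 3 was the highest array, and without it the difference was 1.20.

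Of 17 genes of the retinoic acid, FGF and CDX inputs to HOX genes, 1 was named, RXRG, a retinoid receptor. RXRG had -0.78, -0.42 and -0.46 in soleus and 0.70, 1.47 and 0.42 in longissimus dorsi (difference -1.42, SE 0.27, limma adjusted p = 0.306). It lay on the side of MEIS1, with no overlap between the muscles, as did 8.11% of the array. Of 16 Polycomb and trithorax regulators, which keep HOX clusters silent or active, 0 were named. Past the adjusted threshold in limma there were 0 of these 2 other genes, against 0.00836% of the array. At an unadjusted p under 0.05 there were 2 of the 2, against 8.46%, both kept by the authors on this same contrast. A member without a kept probe set was not analysed here.

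A pair of further genes was picked after their values were seen. PRRX2, a paired-type homeobox gene of limb mesenchyme, was the 1 gene other than HOXA10 and MEIS1 with homeobox in its title. PRRX2 had 0.42, 0.44 and 0.30 in soleus and -0.30, -0.43 and -0.77 in longissimus dorsi. Its difference was 0.89 (SE 0.17, limma adjusted p = 0.306), and longissimus dorsi replicate 3 was the lowest array, as for HOXA10. CRABP1, a cytoplasmic carrier of retinoic acid, had 1.63, 0.17 and 0.86 in soleus and -0.17, -0.28 and -0.69 in longissimus dorsi (difference 1.27, SE 0.35, limma adjusted p = 0.436). The CRABP1 arrays of soleus spread widely, and replicate 1, lowest of the soleus arrays for HOXA10, was the highest here.

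**Figure D4:**
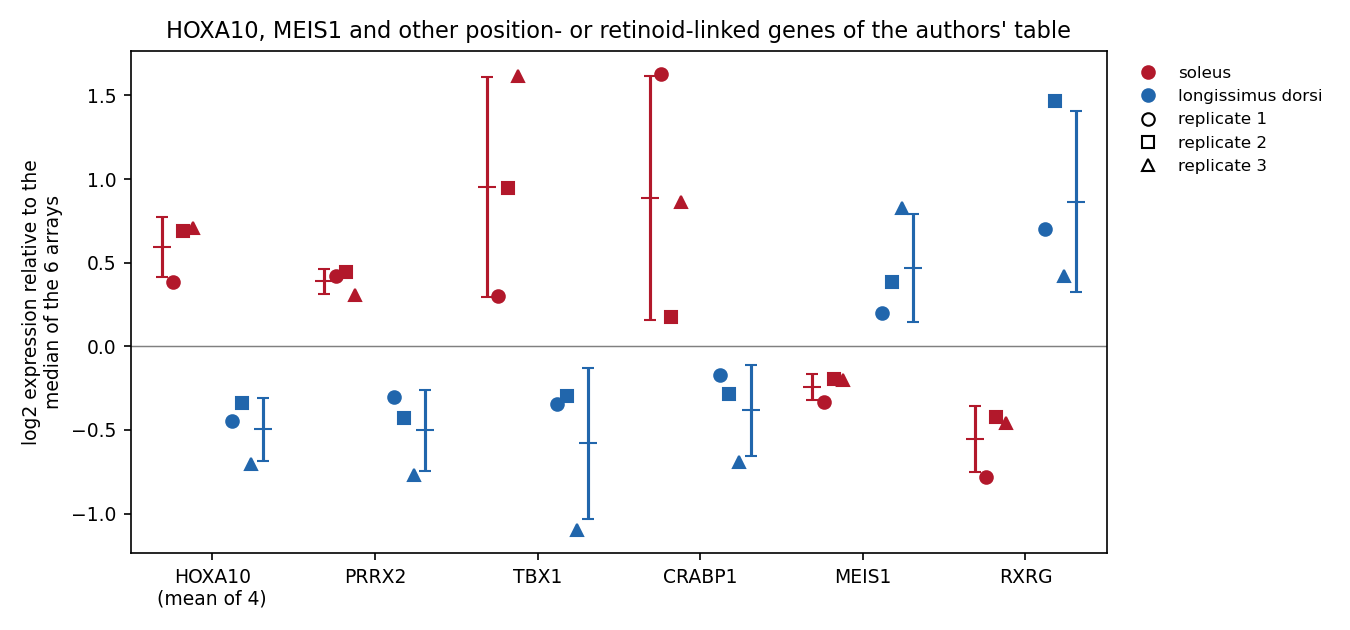
Log2 expression relative to the median of the 6 arrays (vertical axis) for the HOXA10 mean of 4 probe sets, PRRX2, TBX1, CRABP1, MEIS1 and RXRG, soleus in red left of longissimus dorsi in blue, marker shapes for replicate numbers, bars for the mean ± SD of 3 arrays. All were kept for differing between the muscles, the first 4 being higher and the last 2 lower in soleus, and TBX1 and CRABP1 have the widest soleus spread.

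The genes with the most similar course over the 6 arrays were sought among the other 290 genes named in the authors' table, where a gene stood by its best probe set. For the HOXA10 mean they were PTHLH (r = 0.998), TGFB1 (0.996), myosin IXb (0.992), annexin A8 (0.979), gelsolin-like capping protein (0.976), FLNA (0.973), adenylate cyclase 3 (0.972) and the prostate androgen induced transmembrane transcript (0.972). PTHLH encodes a parathyroid hormone-related peptide, TGFB1 a growth factor and FLNA an actin cross-linker. PTHLH had 0.25, 0.52 and 0.49 in soleus and -0.41, -0.25 and -0.55 in longissimus dorsi, so that its arrays stand in nearly the order of HOXA10. After each muscle's mean was removed, the correlation with HOXA10 was 0.98 for PTHLH, 0.97 for TGFB1 and 0.98 for myosin IXb, and 0.47 to 0.82 for the other 5. Of all other probe sets on the array, 25 of 23930 had a correlation at or above that of the eighth gene.

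For MEIS1 the 8 were peroxisome biogenesis factor 13 (0.98), beta 1 syntrophin (0.97), a DnaJ subfamily A member 5-like transcript (0.97), a zinc finger protein 2-like transcript (0.97), suppressor of variegation 3-9-like protein 2 (0.97), AQP3 (0.96), EGF (0.95) and neuritin (0.95). AQP3 encodes a water and glycerol channel, and suppressor of variegation 3-9-like proteins methylate histone H3. AQP3 had -0.89, -0.94 and -0.25 in soleus and 0.25, 1.39 and 1.91 in longissimus dorsi, and like MEIS1 it was highest in longissimus dorsi replicate 3. With the muscle means removed the 8 correlations were 0.83 to 0.93. All 8 genes, like MEIS1, had their highest value on longissimus dorsi replicate 3. How far the correlations within muscles rest on that array was not tested. A correlation at or above the eighth was found in 70 of the 23930 other probe sets. These likenesses rest on 6 arrays, and the table was selected for the step between muscles that dominates them.

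Markers of other cells also differed between the muscles in their means. They are named because their probe sets passed the authors' cut-offs on this same contrast, which kept only differences of at least 1.5-fold. Of 22 fibroblast and tendon markers 11 were named, and all 11 had higher means in soleus, where 323 of the 550 probe sets of the authors' table were higher. Past the adjusted limma threshold there were 0 of the 11 (11 at an unadjusted p under 0.05), against 0.00836% and 8.46% of the array. The median difference of the 11 was 1.27. Their mean was 0.75, 0.43 and 0.84 on the soleus arrays, against -0.39, -0.60 and -0.63 on the longissimus dorsi arrays. These markers and the HOXA10 mean shared their highest soleus array, replicate 3, and their lowest longissimus dorsi array, also replicate 3. These ranks include near ties. The HOXA10 mean was 0.70 on soleus replicate 3 and 0.69 on replicate 2. The markers were at -0.63 on longissimus dorsi replicate 3 and -0.60 on replicate 2. On the HOXA10 probe set Ssc.12652.1.A1_at, soleus replicate 3 was the lowest soleus array. The lowest soleus array was replicate 2 for the markers and replicate 1 for the HOXA10 mean. Of 17 slow and fast fibre markers the 3 given above were named. LAPTM5, the 1 named of 7 leukocyte markers, differed by 0.65, and MBP, the 1 named of 6 nerve and Schwann cell markers, by -0.91. No satellite cell, endothelial or adipocyte marker was named, and since the values hold no level, no marker can be given as absent. The part of any of these cells in the HOXA10 and MEIS1 differences was not tested.

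Soleus replicate 3 stood apart from the rest, with an SD of 0.50 over probe sets, against 0.28 to 0.31 on the other soleus arrays and 0.24 to 0.30 on those of longissimus dorsi. Without it HOXA10 differed by 1.03 and MEIS1 by -0.74, close to the values with it. Over the arrays left out in turn, the HOXA10 difference ran from 0.99 to 1.19 and that of MEIS1 from -0.85 to -0.53.

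**Figure D5:**
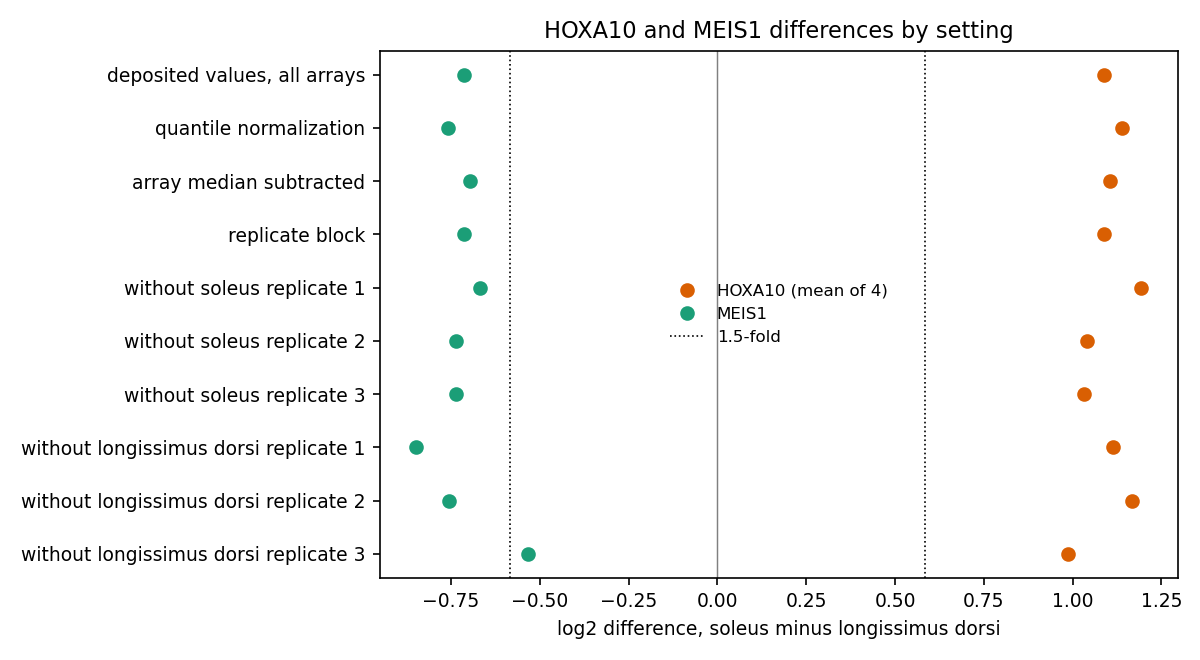
Log2 difference, soleus minus longissimus dorsi (horizontal axis), for the HOXA10 mean of 4 probe sets and for MEIS1 under each setting (rows), with dotted lines at 1.5-fold. HOXA10 stays between 0.99 and 1.19, and MEIS1 crosses the dotted line where longissimus dorsi replicate 3 is left out (-0.53).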

How the data were processed

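Biotin-labelled RNA was read on porcine GeneChips, as the labels' protocols state. MAS5 version 2.3.1 is named in the submitters' processing notes, and how arrays were scaled to each other is not given in the sources used here. As for the values, the deposited value table holds log2 expression centred on each probe set's median over the 6 arrays, which was 0 within 1e-06 in 24123 of 24123 probe sets. The authors' table gives, per the file headers, an unadjusted p-value of an unpaired test, and its fold is, as deposited, a linear ratio, larger muscle mean over smaller.

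The 188 control probe sets were left out, and limma 3.58.1 (lmFit, eBayes; R 4.3.3) compared soleus with longissimus dorsi over 23935 probe sets, calling those with a Benjamini-Hochberg adjusted p under 0.05. The fit was tested on simulated data. The SE of the HOXA10 mean came from the pooled SD of its array values. Alternatives were quantile normalization, subtracting each array's median, the replicate number as a block, and leaving out each array. A filter on dim probe sets could not be formed from centred values. Named genes were all members, list genes of the authors' table and the 8 named genes most correlated with each member. Names came from that table alone, by symbol or title. The members and lists were chosen with earlier results of these data known.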

Additional observations from a re-analysis of the deposited data

How the results depend on the processing

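The HOXA10 difference of 1.09 and the MEIS1 difference of -0.71 kept their sign and moved by less than 1 SD under the alternatives run. With quantile normalization they were 1.14 and -0.76, and with array medians subtracted 1.11 and -0.70. With the replicate number as a block they stay at 1.09 and -0.71 by construction. Since the members were selected on these arrays, this says nothing about stability. The adjusted count of 2 over the array became 6 with quantile normalization, 7 with the replicate block and 1 to 4 with an array left out (4 without soleus replicate 3, 1 without longissimus dorsi replicate 1). It included 0 of the 5 HOXA10 and MEIS1 probe sets, and 0 of the 2 other list genes, under all 9 alternatives of the fit. The count of 1219 at unadjusted p and 1.5-fold ran from 797 (without longissimus dorsi replicate 2) to 2501 (without soleus replicate 1). The cause was not tested. Samples of one number had deviations from their muscle means that correlated at -0.14, 0.11 and 0.25, so the numbers were not taken as pairs. Samples numbered 3 correlated best with each other, and those numbered 1 and 2 did so across numbers. The settings for TBX1, RXRG, PRRX2 and CRABP1 were chosen after seeing the data. The filter on dim probe sets was not run, and signal over background is unknown.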
